A study of Homo sapiens with 12 samples.

Results

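The genes described here encode the isozymes of 4 enzyme families of glycolysis, HK1 and HK2 (hexokinase), PFKL, PFKM and PFKP (phosphofructokinase), ALDOA and ALDOC (aldolase), and ENO1, ENO2 and ENO3 (enolase). They were chosen by gene symbol, 10 of the 45478 genes in the count table, and the share of each in the summed level of its family was computed in every library. All 10 passed the filter on low counts. mRNA was sequenced from 4 groups of clear cell renal cell carcinoma (ccRCC) cells in culture with 3 replicate libraries each. The parental groups were 786-O and A498, which are established human ccRCC cell lines. The sunitinib-resistant 786-O cells, called resistant 786-O here, had been kept in 4 µM sunitinib, an inhibitor of receptor tyrosine kinases, and the sunitinib-resistant A498 cells (resistant A498) in 2 µM, each over 4 months or more than 20 passages. The names 786-O and A498 alone stand for the parental cells. The labels name 1 resistant line for each parental line, and all groups were grown in high-glucose medium. The treatment label of all 12 samples is none, and their titles also carry a code with the letters veh, which the sources used here do not spell out. Whether the 3 libraries of a group came from separate cultures is not stated, so the p-values measure the spread between these libraries, which may be technical.

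Glycolysis converts glucose to pyruvate in a chain of cytosolic reactions, and several of its steps are served by isozymes from separate genes with different tissue distributions. Hexokinase traps glucose in the cell as glucose 6-phosphate, phosphofructokinase makes the committed step to fructose 1,6-bisphosphate, aldolase splits that sugar into triose phosphates, and enolase forms phosphoenolpyruvate near the end of the chain. Many of these genes, HK2, ALDOC and ENO2 among them, are known as targets of hypoxia-inducible factors, which are stabilised in ccRCC cells that have lost VHL.

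Total counts per library ranged from 20042519 to 47972092. Levels are given as CPM, the counts of a gene scaled to a common library size by edgeR's TMM method. Some libraries stood apart from their labels. Pairs of libraries labelled resistant A498 and A498 had a median Pearson r of 0.918 over the log2(CPM + 1) of the tested genes. With 786-O it was 0.967, with resistant 786-O 0.989, and for the parental pair of lines 0.916. HIF1A, which encodes a hypoxia-inducible factor subunit, was at 292 to 312 CPM in A498 and between 8.42 and 11.2 CPM in the other 9 libraries, those labelled resistant A498 included. The comparison of resistant A498 with A498 is therefore given beside those with 786-O and resistant 786-O. In resistant 786-O, replicate 2 differed from replicates 1 and 3 by a chi-square per gene of 76.4 and 75.8, against 11.98 between replicates 1 and 3. Batch labels differed by group without exception, and batch and group cannot be told apart. Of 7 renal or ccRCC markers, 6 were at 1 CPM or more in 786-O, resistant 786-O and resistant A498 and 7 in A498, and CA9 was the marker under 1 CPM. Summed levels of the 7 neuronal or neuroendocrine markers, which mark cells known for ENO2, were 2.39 to 9.004 CPM over all libraries. By group they were 4.64 to 5.44 CPM in 786-O, 2.61 to 3.76 in resistant 786-O, 6.47 to 9.004 in A498 and 2.39 to 2.43 in resistant A498. Among them CHGA was at 3.97 to 7.21 CPM in A498 and at most 0.087 CPM elsewhere, and SNAP25 at 2.95 to 3.67 CPM in 786-O and at most 0.96 CPM elsewhere. Summed levels of the 7 muscle markers were at most 2.32 CPM.

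The promoters of HK2, ALDOC and ENO2 are shown. Each gene spanned the widest range of group means in its family (0.85, 4.55 and 4.60 on the log2 CPM scale). PFKM, the widest-ranging phosphofructokinase gene (0.61), had no match to the letters described below and is left out. The sequences shown are the 250 bases before the RefSeq start site on GRCh38.p14. They lie at chr2:74833877-74834126 on the plus strand for HK2, chr17:28576896-28577145 on the minus strand for ALDOC and chr12:6914330-6914579 on the plus strand for ENO2. Capitals mark ACGTG or GCGTG, the core letters of the element bound by hypoxia-inducible factors, on either strand.
HK2: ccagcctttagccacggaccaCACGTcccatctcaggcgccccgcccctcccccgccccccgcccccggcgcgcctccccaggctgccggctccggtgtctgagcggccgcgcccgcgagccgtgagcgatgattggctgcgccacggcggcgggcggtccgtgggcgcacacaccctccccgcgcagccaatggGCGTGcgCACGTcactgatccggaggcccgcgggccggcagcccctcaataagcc
ALDOC: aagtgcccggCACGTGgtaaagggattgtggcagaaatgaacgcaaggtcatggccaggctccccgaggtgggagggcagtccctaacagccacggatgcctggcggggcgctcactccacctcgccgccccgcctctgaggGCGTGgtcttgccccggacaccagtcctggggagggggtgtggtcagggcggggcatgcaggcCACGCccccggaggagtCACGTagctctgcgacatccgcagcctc
ENO2: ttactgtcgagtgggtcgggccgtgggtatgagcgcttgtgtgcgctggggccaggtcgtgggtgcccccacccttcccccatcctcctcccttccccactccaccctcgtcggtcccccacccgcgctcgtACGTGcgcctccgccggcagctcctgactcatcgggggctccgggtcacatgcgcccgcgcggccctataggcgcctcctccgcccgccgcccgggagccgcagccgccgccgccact
HK2 held 3 matches, starting at bases -229, -55 and -48 from the start site. ALDOC held 5, of which the matches at -240 and -239 lie on opposite strands of the same letters, and ENO2 held 1 at -118. In all, 7 of the 10 isozyme genes held a match in this window, and PFKM, PFKP and ENO3 held none. The RefSeq start used lay 3283 bases past the start of the MANE Select transcript for PFKM, 422 for PFKP and 217 for HK1. For these genes the window is therefore not the one before the MANE Select start, and the count of matches carries that limit. Among all 35116 promoter windows of 250 bases, 43.2% held a match. A match is a description of the letters only, and no binding was measured.

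The levels of the 10 genes ran from a mean of 1.19 CPM for ALDOC in resistant A498 to 3965 CPM for ENO1 in 786-O. Divided by the length of the MANE Select transcript, so that genes can be set beside each other, ENO1 was at 1139 to 2226 CPM per kb over the group means, PFKP at 185 to 257 and ENO3 at 179 to 265. HK2 was at 5.66 to 10.2 CPM per kb, and ALDOC at 0.74 CPM per kb in resistant A498 and 18.6 in A498. The widest ranges of group means belonged to ENO2 and ALDOC, and the other 8 genes spanned 0.46 to 0.97 on the log2 scale.

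**Figure D1:**
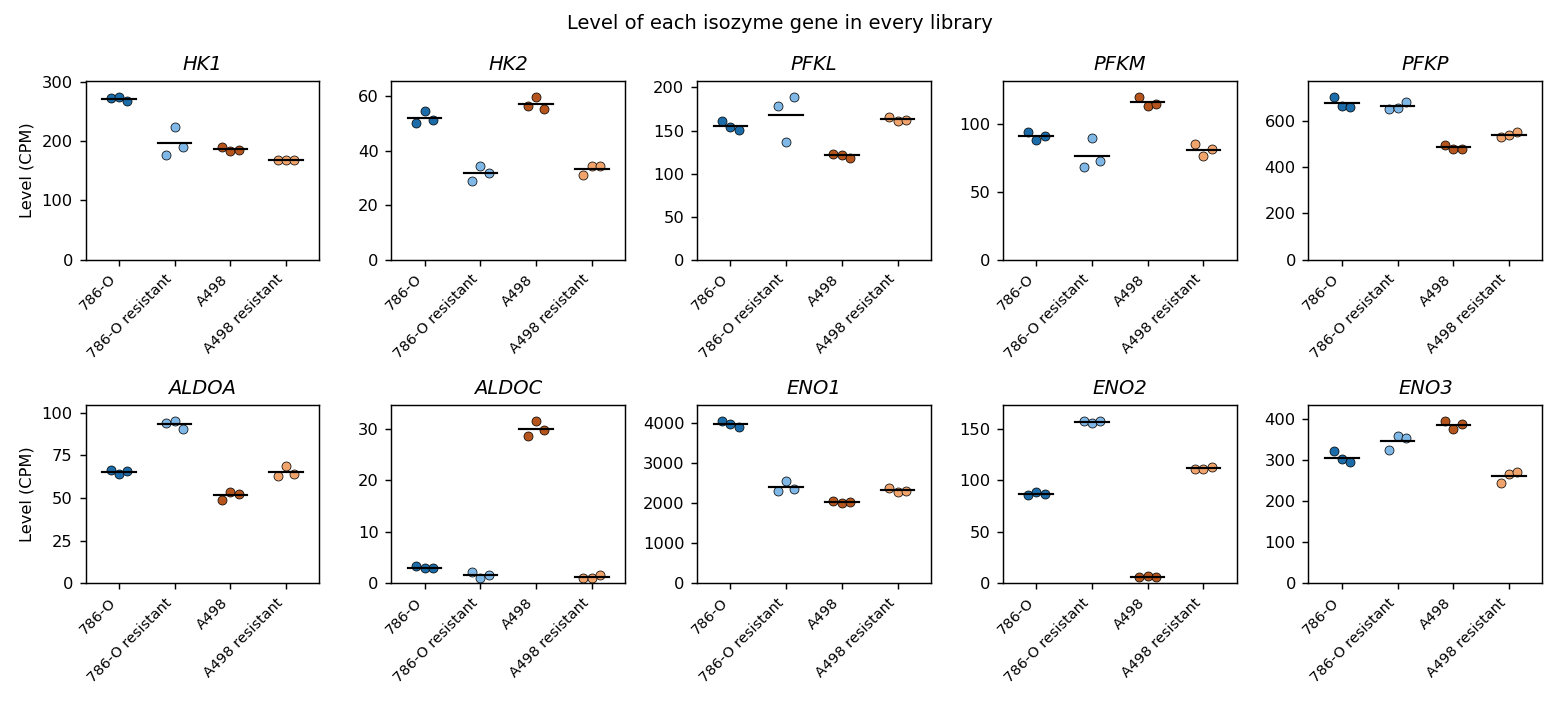
Level of each isozyme gene (CPM, linear axis from 0) in every library of the 4 groups, with points for libraries and a line for the mean of 3. ENO2 was lowest and ALDOC highest in A498, HK2 was lower in both resistant groups than in both parental groups, and resistant 786-O replicate 2 sat apart for HK1, PFKL and PFKM.

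HK2, the inducible hexokinase that is bound to mitochondria in many tumours, fell in both resistant groups. Its level was 50.2, 54.7 and 51.4 CPM in 786-O and 29.1, 34.5 and 32.0 CPM in resistant 786-O. In A498 it was 56.5, 59.7 and 55.5 CPM, and in resistant A498 31.1, 34.3 and 34.5 CPM. The 6 resistant libraries lay below all 6 parental libraries. The fall was 1.64-fold in resistant 786-O (log2 fold change -0.71 ± 0.07 SE, edgeR adjusted p = 1.9e-07) and 1.72-fold in resistant A498 (log2 fold change -0.78 ± 0.07 SE, adjusted p = 6.2e-08). The difference between these changes was -0.07 (95% interval -0.27 to 0.13, edgeR adjusted p = 0.52). Against 786-O in place of A498, HK2 in resistant A498 was 1.57-fold lower (edgeR adjusted p = 7.6e-07), and the direction was the same against either parental line. 786-O and A498 did not pass the threshold for HK2 (log2 fold change -0.13, edgeR adjusted p = 0.077).

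HK1, the hexokinase of most tissues, lies on chromosome 10 at 69269984 to 69401884 (GRCh38, plus strand). It was at 273, 275 and 269 CPM in 786-O, 176, 224 and 190 CPM in resistant 786-O, 191, 184 and 185 CPM in A498 and 168, 169 and 168 CPM in resistant A498. The 786-O libraries were above all others, and the highest resistant 786-O library was replicate 2. HK1 fell 1.38-fold in resistant 786-O (log2 fold change -0.47 ± 0.07 SE, edgeR adjusted p = 1.5e-05), and without replicate 2 the log2 fold change was -0.57. In resistant A498 the log2 fold change was -0.15 (edgeR adjusted p = 0.055), a value that passed the threshold without resistant 786-O replicate 2 (-0.14, adjusted p = 0.00053). The change in resistant A498 differed from that in resistant 786-O by 0.32 (edgeR adjusted p = 0.0069). Ordered by level, 786-O was highest, and resistant 786-O, A498 and resistant A498 followed with neighbours that did not differ by the test.

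HKDC1, a hexokinase domain gene, lies next to HK1 on chromosome 10 (69220332 to 69267552). Per kb of transcript, HKDC1 was at 38.7 CPM in 786-O, 47.8 in resistant 786-O, 58.1 in A498 and 82.1 in resistant A498, and HK1 at 75.6, 54.7, 51.8 and 46.7 in the same order. The level of HKDC1 per library was 138 to 144 CPM in 786-O, 141 to 197 CPM in resistant 786-O, 212 to 213 CPM in A498 and 299 to 301 CPM in resistant A498. HKDC1 was higher in resistant A498 than in A498 by 0.50 on the log2 scale (edgeR adjusted p = 9.1e-05) and than in 786-O by 1.09 (adjusted p = 4.1e-08). In resistant 786-O it was higher than in 786-O by 0.31 (edgeR adjusted p = 0.0052), with libraries that overlapped; without replicate 2 the value was 0.44, and with the trend of GC content and length removed it was 0.18 (adjusted p = 0.091). HK3, a hexokinase of myeloid cells, was at most 0.56 CPM in any library.

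Within the pair, HK1 held 83.9% ± 0.54 (SD, n = 3) of the CPM in 786-O, 86.0% ± 0.54 in resistant 786-O, 76.5% ± 0.88 in A498 and 83.5% ± 0.81 in resistant A498. The HK2 share was thus lower in both resistant groups than in their parental line, from 16.1% to 14.0% and from 23.5% to 16.5%, with no overlap of libraries. Between resistant A498 and 786-O the HK2 share differed by 0.42 percentage points, with libraries that overlapped. With HKDC1 and HK3 counted in the family, the leading gene changed in A498 and resistant A498. HK1 then held 58.5% in 786-O, 48.8% in resistant 786-O, 40.9% in A498 and 33.6% in resistant A498, and HKDC1 held 30.3%, 43.3%, 46.5% and 59.8%. In A498 and resistant A498 all libraries had more CPM of HKDC1 than of HK1, and in resistant 786-O replicates 1 and 3 did and replicate 2 did not.

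**Figure D2:**
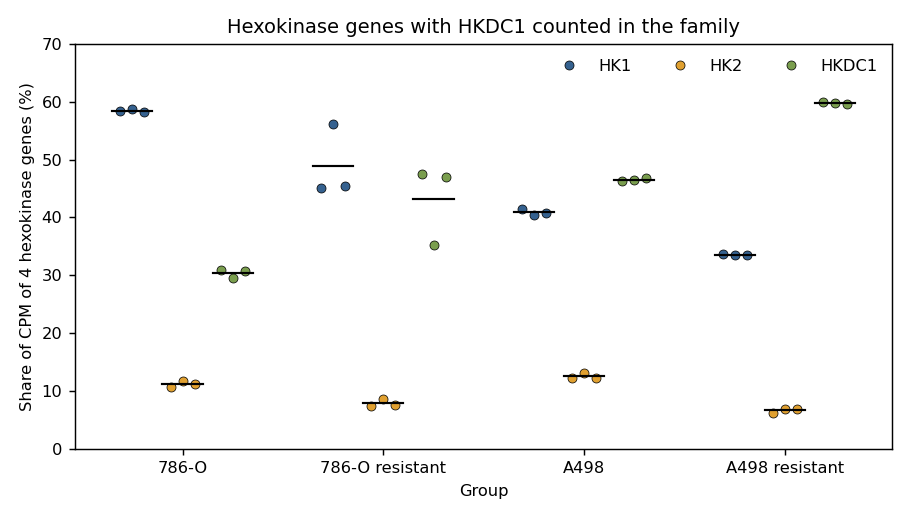
Share of HK1, HK2 and HKDC1 in the summed CPM of 4 hexokinase genes (vertical axis, %) in the 4 groups, with points for libraries and lines for means of 3. The mean share of HKDC1 is 30.3% in 786-O, 43.3% in resistant 786-O, 46.5% in A498 and 59.8% in resistant A498, and the resistant 786-O libraries divide between 35.3% for replicate 2 and 47.0% to 47.5% for the others.

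PFKP, the platelet-type subunit of the phosphofructokinase tetramer, was the leading phosphofructokinase gene in all 4 groups. It was at 661 to 702 CPM in 786-O, 652 to 680 CPM in resistant 786-O, 478 to 497 CPM in A498 and 531 to 550 CPM in resistant A498. The libraries of 786-O and resistant 786-O overlapped, and those of resistant A498 were above A498 and below 786-O. Its log2 fold change in resistant 786-O was -0.03 (95% interval -0.12 to 0.06, edgeR adjusted p = 0.54), and it was 0.11 with scaling to total counts in place of TMM (adjusted p = 0.017) and -0.25 with the trend of GC content and length removed (adjusted p = 4.6e-05), so that no direction is given. In resistant A498 PFKP rose 1.11-fold over A498 (log2 fold change 0.15 ± 0.04 SE, edgeR adjusted p = 0.0036).

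PFKM, the muscle-type subunit, was the phosphofructokinase gene with the widest range. Its levels were 93.7, 88.1 and 91.1 CPM in 786-O and 68.1, 89.3 and 72.3 CPM in resistant 786-O. In A498 they were 120, 113 and 115 CPM, and in resistant A498 85.4, 76.0 and 81.2 CPM. Resistant A498 lay wholly below A498 and below 786-O, while resistant 786-O replicate 2 lay among the 786-O libraries. Against 786-O, resistant A498 did not pass the threshold (log2 fold change -0.17, edgeR adjusted p = 0.079). PFKM fell 1.43-fold in resistant A498 against A498 (log2 fold change -0.52 ± 0.08 SE, edgeR adjusted p = 3.3e-05) and 1.19-fold in resistant 786-O (log2 fold change -0.25 ± 0.08 SE, adjusted p = 0.012). The value in resistant 786-O was -0.38 without replicate 2 (edgeR adjusted p = 4.8e-09), and the call was lost without replicate 1 (adjusted p = 0.11) or replicate 3 (adjusted p = 0.076).

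PFKL, the liver-type subunit, was at 161, 154 and 151 CPM in 786-O, 178, 137 and 189 CPM in resistant 786-O, 123, 121 and 118 CPM in A498 and 166, 161 and 162 CPM in resistant A498. The A498 libraries were below all others, and resistant 786-O replicate 2 was lower than every 786-O library whereas replicates 1 and 3 were higher. PFKL rose 1.35-fold in resistant A498 against A498 (log2 fold change 0.43 ± 0.09 SE, edgeR adjusted p = 0.00033), and differed from 786-O by 0.07 (95% interval -0.11 to 0.25). In resistant 786-O the log2 fold change was 0.11 (edgeR adjusted p = 0.26), 0.24 without replicate 2 (adjusted p = 2.0e-06) and -0.47 with the trend of GC content and length removed (adjusted p = 7.7e-06), and no direction can be given.

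As a family, PFKP held 73.3% ± 0.09 (SD, n = 3) of phosphofructokinase CPM in 786-O, 73.1% ± 1.11 in resistant 786-O, 67.2% ± 0.10 in A498 and 68.8% ± 0.85 in resistant A498. The PFKM share was highest in A498, at 16.1% against 9.87% in 786-O, 8.47% in resistant 786-O and 10.3% in resistant A498. The share of PFKL was 20.8% ± 0.38 in resistant A498, above the 16.8% ± 0.21 of A498 in all libraries. FBP1, which encodes the bisphosphatase that reverses this step in kidney and liver, was at most 0.28 CPM in every library. FBP2, the muscle form, had 2 to 5 counts per library in 786-O and 28 to 64 in resistant 786-O (log2 fold change 3.32, edgeR adjusted p = 8.6e-06), which is under 1.31 CPM in all of them.

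ALDOC, the aldolase best known from brain, was highest in A498 and at low levels in the other groups. Its levels were 28.6, 31.5 and 29.7 CPM in A498 and 0.97, 0.96 and 1.64 CPM in the libraries labelled resistant A498, from 678 to 988 counts and 20 to 42 counts per library. In 786-O it was at 3.29, 2.90 and 2.97 CPM, and in resistant 786-O at 2.1, 1.05 and 1.6 CPM. All A498 libraries were far above the other 9, and resistant 786-O and resistant A498 overlapped at the bottom. ALDOC was 24.9-fold lower in resistant A498 than in A498 (log2 fold change -4.64 ± 0.19 SE, edgeR adjusted p = 1.4e-11), and 9.80-fold lower in 786-O than in A498 (log2 fold change -3.29 ± 0.16 SE, adjusted p = 5.4e-11). It also fell 1.91-fold in resistant 786-O (log2 fold change -0.93 ± 0.19 SE, edgeR adjusted p = 0.00054), and resistant A498 was 2.54-fold below 786-O (adjusted p = 0.00011). Between resistant A498 and resistant 786-O the log2 fold change was -0.41 (95% interval -0.94 to 0.12). ENSG00000265168, on the opposite strand at the 3' end of ALDOC, had 180 to 263 counts in A498 and 4 to 36 in the other libraries, and its part in the ALDOC result was not tested.

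ALDOA, the aldolase of muscle and of most dividing cells, rose in both resistant groups. It was at 66.4, 64.1 and 65.8 CPM in 786-O and 94.1, 95.1 and 90.4 CPM in resistant 786-O, a 1.42-fold rise (log2 fold change 0.51 ± 0.05 SE, edgeR adjusted p = 2.9e-07). In A498 it was at 49.0, 53.6 and 52.1 CPM and in resistant A498 at 63.0, 68.5 and 64.2 CPM, a 1.27-fold rise (log2 fold change 0.34 ± 0.05 SE, edgeR adjusted p = 2.3e-05). Neither pair of groups overlapped, and the resistant A498 libraries overlapped those of 786-O (log2 fold change -0.01, 95% interval -0.11 to 0.10). ENSG00000274904 lies on the opposite strand over 13.6% of the ALDOA exon bases, outside the MANE Select transcript. It had 1348 to 1595 counts per library in 786-O and 453 to 571 in resistant 786-O. In A498 it had 1321 to 1922 and in resistant A498 310 to 334, and its part in the ALDOA result was not tested. The ALDOA counts may be partial. ENSG00000285043, a gene on the same strand, covers 100% of the ALDOA coding sequence and 89.8% of its MANE Select transcript in GENCODE 44, and the counting program by default assigns reads that overlap 2 genes to neither. ALDOA was at 31.4 to 56.8 CPM per kb, against 528 to 980 for TPI1, the isomerase that acts on the products of aldolase, and ENSG00000285043 itself had 67 to 210 counts. Levels of ALDOA and its share against ALDOC may therefore be understated, and its differences between groups may rest on the exon parts that the genes do not share.

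With that limit, ALDOA held 95.5% ± 0.23 (SD, n = 3) of the CPM of the pair in 786-O, 98.3% ± 0.55 in resistant 786-O and 98.2% ± 0.61 in resistant A498, but 63.2% ± 0.36 in A498. The ALDOC share was 36.8% in A498, 4.45% in 786-O, 1.67% in resistant 786-O and 1.80% in resistant A498.

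ENO1, the enolase of most tissues, had the highest mean level per length of the 10 genes in every group. It was at 4046, 3959 and 3890 CPM in 786-O, 2301, 2550 and 2345 CPM in resistant 786-O, 2053, 2011 and 2020 CPM in A498 and 2370, 2279 and 2307 CPM in resistant A498. 786-O was above all other groups, and resistant 786-O and resistant A498 overlapped. ENO1 fell 1.65-fold in resistant 786-O (log2 fold change -0.73 ± 0.04 SE, edgeR adjusted p = 2.1e-09) but rose 1.14-fold in resistant A498 against A498 (log2 fold change 0.19 ± 0.04 SE, adjusted p = 0.0011), and these changes differed by 0.92 (edgeR adjusted p = 5.2e-09). Against 786-O, ENO1 in resistant A498 was 1.71-fold lower (log2 fold change -0.77, edgeR adjusted p = 1.1e-09) beside the -0.73 of resistant 786-O.

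ENO2, the neuron-specific or gamma enolase, rose in both resistant groups. Its levels were 85.9, 88.1 and 86.3 CPM in 786-O and 157, 155 and 157 CPM in resistant 786-O. In A498 they were 6.05, 7.21 and 5.81 CPM, and in resistant A498 111, 111 and 112 CPM. No groups overlapped, and the order from highest to lowest was resistant 786-O, resistant A498, 786-O and A498, with each neighbour different by the test. ENO2 rose 1.81-fold in resistant 786-O (95% interval of the log2 fold change 0.75 to 0.96). It was 17.7-fold higher in resistant A498 than in A498, 13.8-fold higher in 786-O than in A498 and 1.29-fold higher in resistant A498 than in 786-O (log2 fold change 0.36 ± 0.05 SE, edgeR adjusted p = 1.3e-05). The log2 ratio of ENO2 to ENO1 was -5.51 ± 0.04 (SD, n = 3) in 786-O, -3.93 ± 0.09 in resistant 786-O, -8.32 ± 0.17 in A498 and -4.38 ± 0.03 in resistant A498.

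ENO3, the muscle or beta enolase, had the second largest share of the family. It was at 322, 301 and 295 CPM in 786-O and 323, 358 and 355 CPM in resistant 786-O, and at 395, 375 and 387 CPM in A498 and 245, 265 and 271 CPM in resistant A498. A498 was above all other groups and resistant A498 below them. ENO3 fell 1.48-fold in resistant A498 against A498 (log2 fold change -0.57 ± 0.05 SE, edgeR adjusted p = 1.7e-07) and was 1.18-fold lower in resistant A498 than in 786-O (adjusted p = 0.0015). In resistant 786-O it was 1.13-fold higher (log2 fold change 0.17 ± 0.05 SE, edgeR adjusted p = 0.0096), but this was -0.03 with the trend of GC content and length removed (adjusted p = 0.57) and missed the threshold without 786-O replicate 3 (adjusted p = 0.056). The enolase shares were 91.0% ± 0.12 (SD, n = 3), 82.7% ± 0.58, 83.8% ± 0.21 and 86.2% ± 0.66 for ENO1 in 786-O, resistant 786-O, A498 and resistant A498. For ENO2 they were 1.99%, 5.41%, 0.26% and 4.15%, and for ENO3 7.02%, 11.9%, 15.9% and 9.67%.

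**Figure D3:**
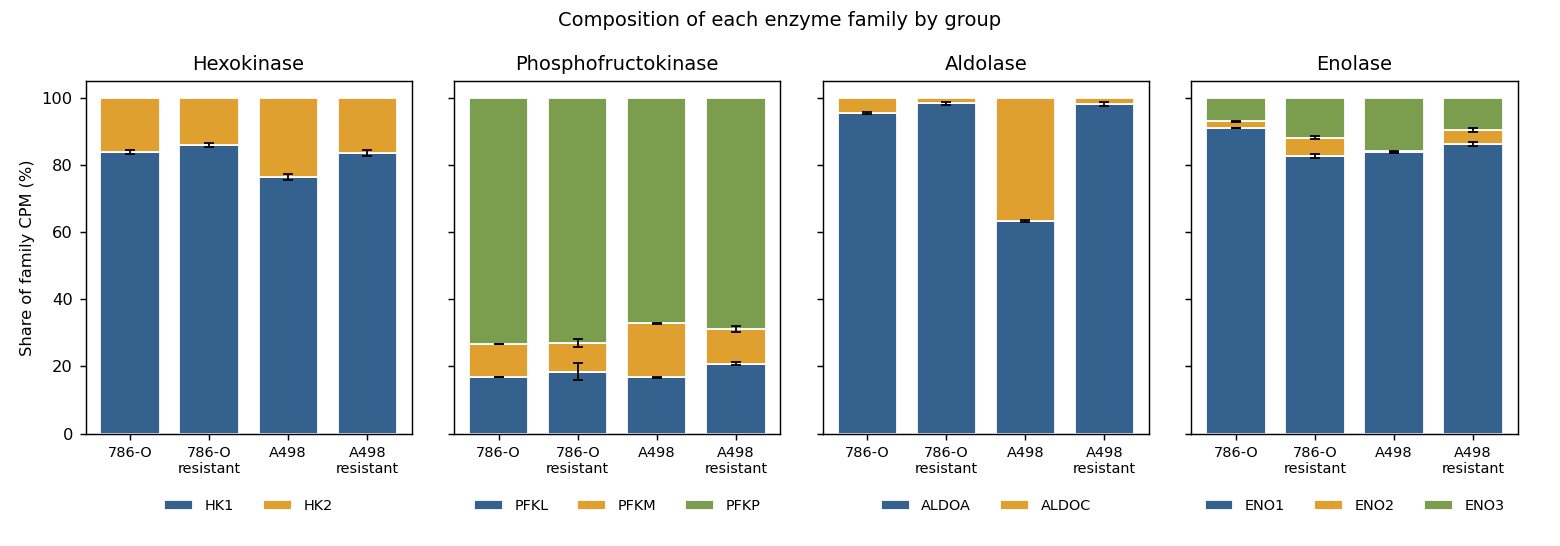
Mean share of each gene in the summed CPM of its family (vertical axis, %) by group, as stacked bars from 0 to 100%, with error bars of 1 SD over 3 libraries at each boundary. ALDOC takes 36.8% of aldolase in A498 and at most 4.45% elsewhere, and ENO2 takes 5.41% of enolase in resistant 786-O and 0.26% in A498. The ALDOA counts may be partial, so the ALDOC shares may be overstated.

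Within the named isozymes, HK1, PFKP, ALDOA and ENO1 led their families in all 4 groups, 16 of 16 cases. Dividing by the length of the MANE Select transcript kept all 16, with leading shares of 83.6% to 90.6% for HK1, 70% to 75.6% for PFKP, 62.8% to 98.3% for ALDOA and 80.9% to 90.0% for ENO1. Dividing by the length of all exons, the setting planned beforehand, also kept all 16, with ALDOA at 54.0% in A498. Libraries did not overlap in share for 7 of 10 genes between resistant 786-O and 786-O, and for all 10 between resistant A498 and A498. By level, libraries did not overlap for 68.9% and 78.5% of all genes tested in these comparisons. For 3 libraries against 3, the exact permutation test (2-sided) cannot go below p = 0.1, so no share difference could pass a threshold of 0.05 by itself, and shares within a family move together by construction.

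The number of isozyme genes past the threshold was close to that of genes in general. In resistant 786-O against 786-O, 8 of 10 passed, 3 higher and 5 lower, against 68.5% of the 19929 genes tested (35.0% higher and 33.5% lower), and without replicate 2 it was 9. In resistant A498 against A498, 9 of 10 passed, 5 higher and 4 lower, against 72.7% (36.3% and 36.4%). In 786-O against A498 it was 9 of 10, 6 higher and 3 lower, against 74.2% (38.2% and 36.1%). Resistant A498 differed from 786-O in 7 of 10, 1 higher and 6 lower, against 63.6% (31.6% and 32.1%). It differed from resistant 786-O in 5 of 10, all lower, against 46.1% (23.0% and 23.0%), or in 8 of 10 without resistant 786-O replicate 2. The change in resistant A498 differed from that in resistant 786-O for 9 of 10, 5 higher and 4 lower, against 68.3% (33.9% and 34.4%). With a log2 fold change over 1 also required, 0, 2, 2, 1, 0 and 2 of the 10 passed in these 6 tests, against 22.0%, 30.8%, 31.9%, 20.0%, 7.30% and 35.1% of all genes. The median log2 fold change of the 10 genes was -0.14 in resistant 786-O and 0.002 in resistant A498 against A498, beside 0.03 and -0.004 over all genes tested. Scaled by library size alone, the median over all genes in resistant 786-O moved to 0.18, with 8550 genes higher and 5136 lower in place of 6970 and 6673. In resistant A498 against 786-O it moved to 0.15, with 7923 higher and 4743 lower in place of 6292 and 6391. Of the isozyme genes, 5 were then higher and 4 lower in resistant 786-O against 786-O, and 3 higher and 5 lower in resistant A498 against 786-O. With the trend of GC content and length removed, these counts were 2 higher and 7 lower, and 1 higher and 8 lower.

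**Figure D4:**
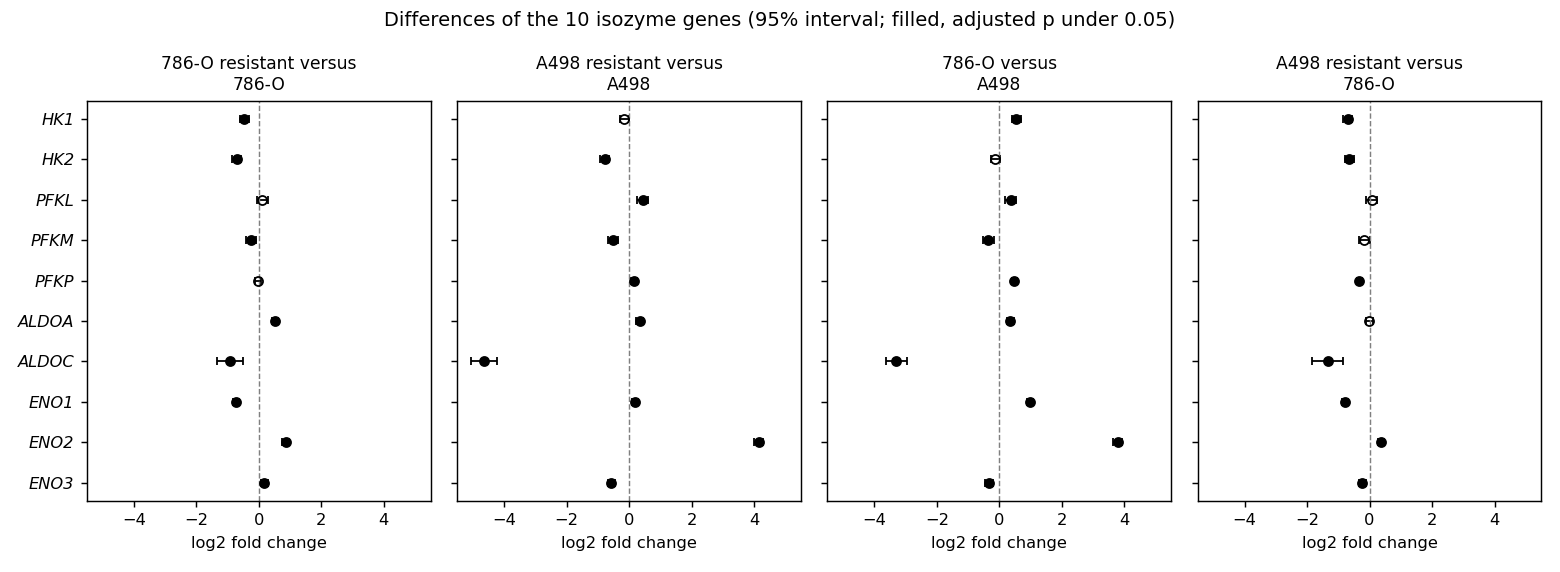
Log2 fold change (horizontal axis) of the 10 isozyme genes in 4 comparisons, with 95% intervals from edgeR and filled points where the adjusted p was under 0.05. ENO2 and ALDOC stand far from 0 in resistant A498 against A498 and in 786-O against A498, while in resistant 786-O against 786-O and in resistant A498 against 786-O no gene lies beyond -1.34.

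The comparisons of resistant A498 and of 786-O with A498 share the A498 libraries, and their values are set side by side here. For ENO2 they were 4.15 and 3.78 on the log2 scale, for ALDOC -4.64 and -3.29, and for PFKL 0.43 and 0.36. Against 786-O, the resistant A498 values were 0.36 for ENO2, -1.34 for ALDOC and 0.07 for PFKL. The size of the ENO2 and ALDOC changes in resistant A498 thus depended on the parental line used, whereas HK2, ALDOC and ENO3 were lower and ENO2 was higher against both with an adjusted p under 0.05. For ENO3 against 786-O the call was lost with library size alone (log2 fold change -0.08, edgeR adjusted p = 0.17). ENO1 and PFKP passed the threshold in opposite directions, higher against A498 and lower against 786-O. For PFKP the values were 0.15 and -0.33.

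The other 13 genes of glycolysis in the list moved in both directions. In resistant 786-O against 786-O, 4 of the 12 that could be tested were higher and 6 lower, with a median log2 fold change of -0.14, and no counts were found for PGK2. The largest changes were in low genes, PGAM2 (log2 fold change 2.18), the muscle phosphoglycerate mutase, PKLR (1.35), the liver and red cell pyruvate kinase, and GAPDHS (1.03), the sperm form of glyceraldehyde phosphate dehydrogenase. In resistant A498 against A498, 3 of 12 were higher and 5 lower, led by BPGM, the bisphosphoglycerate mutase (-0.73), GPI, the glucose phosphate isomerase (-0.69), and GAPDH, the glyceraldehyde phosphate dehydrogenase of most tissues (-0.49). GAPDH was at 4432 CPM per kb in 786-O, 2435 in resistant 786-O, 3797 in A498 and 2695 in resistant A498, lower in both resistant groups. GPI, TPI1, PGK1 and BPGM were also called lower in both, and PGAM2 and ADPGK higher in both. In resistant 786-O the log2 fold change was -0.89 for TPI1, -0.86 for GAPDH and -0.42 for PKM, a pyruvate kinase gene. PKM was not called in resistant A498 (-0.01). With library size alone, GPI in resistant 786-O (edgeR adjusted p = 0.80) and TPI1 in resistant A498 (adjusted p = 0.063) were not called. Against 786-O, GPI in resistant A498 was not called (log2 fold change 0.06). PGAM4 is nearly identical to PGAM1, and counts of these genes may be split between them.

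The genes whose log2 CPM was most like that of the widest-ranging member of each family over the 12 libraries were found among the 9717 or 9718 others whose mean over all libraries reached 10 CPM. For ENO2 they were EFEMP2 (Pearson r = 0.998), ZSCAN18 (0.996) and INHBA (0.996), for ALDOC CENPBD2P (0.993), IQCK (0.992) and ZNF512B (0.991), for HK2 ATP2A2 (0.993), CALD1 (0.990) and EIF5A (0.983), and for PFKM DDX24 (0.986), SHC1 (0.985) and MRPL27 (0.977). EFEMP2, which encodes an extracellular matrix protein, was at 0.49 CPM in A498 and 18.9 to 31.5 CPM in the other group means, and ATP2A2, the calcium pump of the endoplasmic reticulum, was at 403 and 432 CPM in the parental groups and 271 and 287 CPM in the resistant groups. The 12 points fall into 4 groups of 3 libraries, so these values describe agreement of group levels and carry no test.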

How the data were processed

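The study's methods name TruSeq stranded mRNA libraries, sequenced as paired reads on instruments of 2 kinds. The authors trimmed reads with Trimmomatic 0.36.6, aligned them to GRCh38 with HISAT2 2.1.0 and counted sense reads over exons of GENCODE genes with featureCounts 1.6.3. They deposited raw counts, without normalization, for 45478 genes, of which 45283 were matched to a symbol. Positions, overlaps and lengths came from GENCODE 44, a later release than the one counted on.

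Genes passing edgeR's filterByExpr (19929) were TMM-normalized, and a quasi-likelihood model with 4 group means was fitted to the 12 libraries (edgeR 4.0.16, R 4.3.3), with Benjamini-Hochberg adjustment over all genes tested and a threshold of 0.05. The code was tested on simulated data. Shares and exact permutation tests were computed in Python 3.11.15. The genes named are all 10 isozymes, other paralogs (some are not reported here) and, of 13 other glycolysis genes, the changes of up to 3 per comparison with the largest. TPI1, a reference level for ALDOA, and the GAPDH levels were chosen after their values were seen. So were PKM and the other glycolysis genes named as called alike in both resistant groups. Genes and lists were chosen with earlier results of these data known. Replicate numbers did not pair libraries. Alternatives included DESeq2 1.42.0, other scaling and filters, GC content and length correction, thinning, the test named in the study's methods, and each library left out in turn. Transcript-length shares were added after seeing the data.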

Additional observations from a re-analysis of the deposited data

Results flagged for a closer look

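For 9 of the 10 isozyme genes the change from A498 to resistant A498 differed from that from 786-O to resistant 786-O, by edgeR's test of the difference itself (adjusted p under 0.05), as it did for 68.3% of all genes tested. On the log2 scale, the change in resistant A498 minus that in resistant 786-O was 3.29 for ENO2 (adjusted p = 6.8e-14), -3.71 for ALDOC (adjusted p = 2.2e-08), 0.92 for ENO1 and -0.74 for ENO3. It was 0.32 for HK1, 0.32 for PFKL and 0.18 for PFKP, and -0.27 for PFKM and -0.17 for ALDOA, both at an adjusted p of 0.046. With the trend of GC content and length removed, the ALDOA value was 0.065 and neither passed. The count of 9 was 7 with library size alone, with that trend removed or with the replicate block, and 6 with thinned counts. The difference for HK2 was -0.07 and did not pass. ENO1 and ENO3 were called in opposite directions in the 2 resistant groups, although the ENO3 value in resistant 786-O was -0.03 with the trend of GC content and length removed. Libraries labelled resistant A498 correlated more with those of 786-O than of A498, and these differences cannot be told apart from the difference between the parental lines.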

How the results depend on the processing

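HK1, PFKP, ALDOA and ENO1 led their families in 16 of 16 cases under all settings except those that counted further paralogs, where HKDC1 led in 2 cases. Of the shares themselves, 123 values under these alternatives moved by more than 1 SD of the libraries and 157 did not. Many of the 157 could not move. Shares on raw counts equal those on CPM by construction, so that setting could change neither a share nor a leading gene. Adding the overlapping same-strand gene touched only the aldolase shares, and counting further paralogs left phosphofructokinase and aldolase as they were. The 157 is therefore no measure of stability. With a log2 fold change over 1 also required, the isozyme genes called numbered 0 in resistant 786-O against 786-O, 2 in resistant A498 against A498, 2 in 786-O against A498, 1 in resistant A498 against 786-O, 0 in resistant A498 against resistant 786-O and 2 for the difference between the changes. The test named in the study's methods was run on raw counts without adjustment for the number of genes. It called 2 in resistant A498 against A498 and 9 in resistant A498 against resistant 786-O. In resistant A498 against 786-O it called 10, all lower. Raw totals differ between these groups. Leaving out 1 library at a time gave 7 to 9, 9 to 10, 9 to 10, 7 to 8, 5 to 8 and 6 to 9 in the same order, the 8 in resistant A498 against resistant 786-O being without resistant 786-O replicate 2. Among single genes, 635 values kept their direction and side of the threshold, 67 were no longer past it, 24 newly passed it and 24 changed sign, beside 682, 22, 8 and 8 with a library left out. Many of the 635 could not move. A larger prior count for the fold changes left the calls as they were, and adding the overlapping gene altered only ALDOA among the isozyme genes. The rule of a log2 fold change over 1 can only remove calls, and many of the 67 came from it. The 635 is therefore no measure of stability either. The causes of the other moves were not tested.

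Most sign changes were of values near 0. For ALDOA in resistant A498 against 786-O (-0.01) the log2 fold change was 0.15 with library size alone, 0.029 with DESeq2, 0.039 with at least 10 counts in every library, 0.030 with those groups alone, 0.0038 thinned, 0.0095 with the overlapping gene added, and -0.023 to 0.043 with a library left out. For PFKP in resistant 786-O it was 0.11 with library size alone, 0.027 with at least 10 counts, 0.0048 with those groups alone, 0.16 on raw counts, and -0.049 to 0.0069 with a library left out. Removing the trend of GC content and length gave, for PFKL, -0.47 in resistant 786-O, -0.22 in resistant A498 against 786-O and 0.25 against resistant 786-O. It gave -0.032 for ENO3 in resistant 786-O, 0.023 for ENO1 in resistant A498 against resistant 786-O and 0.065 for the ALDOA difference. PFKL in resistant A498 against resistant 786-O ran from -0.17 to 0.059 with a library left out. On raw counts, PFKP in resistant A498 against A498 was -0.035, and in 786-O against A498 HK2 was 0.42, PFKM 0.19 and ENO3 0.21. Against 786-O, PFKL in resistant A498 was -0.66 and ENO2 -0.37 on raw counts, and against resistant 786-O HK2 was -0.85 and PFKM -0.82.

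Replicate numbers did not pair the libraries. Of 18 same-number pairs, 3 had deviations correlated over 0.1 (range -0.24 to 0.25), and 3 of 12 libraries correlated best with their own number. With the replicate number as a block, 8, 9, 10, 7, 5 and 7 isozyme genes were called in the order above. ALDOC in resistant A498 rests on 20 to 42 counts per library.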
